A study of Ostrinia furnacalis with 9 samples.

Results

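In heads of larvae of the Asian corn borer, Ostrinia furnacalis, 991 of 10958 marked places had an H3K9me3 peak at diapause, none at non-diapause and no H3K27me3 peak at any stage. A place is a stretch of sequence covered by peaks that share at least 1 bp, merged over all 6 deposited peak lists, with the 1 sequence whose name starts with NC_ left out. The places were chosen by which deposited lists had a peak in them. They are called gained here, by their calls and not by a measured rise, since a place with no listed peak only fell short of the authors' threshold. Of the 991 places, 486 already had an H3K9me3 peak at pre-diapause and 505 had their only peak at diapause.

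The Asian corn borer is a moth whose full-grown larvae can pass an unfavourable season in diapause, a hormonally controlled arrest of development. H3K9me3 is trimethylation of lysine 9 of histone H3. In animals it is bound by HP1 proteins, marks constitutive heterochromatin and is known for the silencing of transposable elements and other repeats. H3K27me3 is laid down by Polycomb repressive complex 2 and is known for holding developmental genes silent. By textbook knowledge the 2 marks therefore belong to different silencing systems. Whether the gained places belong to either system was not tested.

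Field-collected larvae founded the stock, which was kept at 27 °C under 16 h of light a day and 8 h of dark. Pre-diapause larvae had newly moulted to the fourth instar and then spent 20 days at 20 °C under days of 12 h light and 12 h dark. Diapause larvae were held in that way for at least 30 days, and no separate rearing is given for the non-diapause group. Temperature, day length, time and state therefore cannot be told apart between non-diapause and the other stages. Whole heads were used, no cell type was separated, and the number of larvae in a sample is not given in the sources used here. Each stage and mark has 1 peak list, so the stages have no replicate error to be compared with, and no p-value is given. Intervals are exact Clopper-Pearson 95% intervals. They cover counting error only and treat neighbouring places as independent. Read totals are not in the lists, so the depth behind a call is unknown.

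The 3 H3K9me3 lists differed in length and strength. The non-diapause list held 4483 peaks, the pre-diapause list 7225 and the diapause list 3504. The median of the authors' fold enrichment, the ratio of signal to background averaged over a peak, was 3.40, 3.33 and 2.57 in that order. The median −log10 q was 6.43, 6.49 and 5.37. Fold and −log10 q rank peaks within a list and are not on a scale shared between lists.

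Most diapause H3K9me3 places without H3K27me3 were gained ones. A diapause and no non-diapause H3K9me3 peak was found at 1442 of all 10958 places (13.2%) and at 41.7% of the 3462 places with a diapause H3K9me3 peak. Among the 1161 of these that had no H3K27me3 peak the share was 85.4%, and among the 2301 with an H3K27me3 peak at some stage it was 19.6%. These shares rest on the peaks that defined the places and are given as a description. The gained places held 493 diapause peaks where a pre-diapause peak was present and 505 where it was not, which is 14.1 and 14.4% of the diapause H3K9me3 list. They covered 309 and 259 kb, or 13.3 and 11.1% of the sequence under that list.

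A pre-diapause H3K9me3 peak was present at 49.0% (45.9–52.2) of the gained places. Across all places 65.7% had one, and across all places with a diapause H3K9me3 peak 75.5% did. Where H3K9me3 was called at both non-diapause and diapause, still without H3K27me3, the share was 82.9% (76.4–88.3) of 170 places. Where a non-diapause peak had no diapause peak beside it, the share was 43.0% (38.1–48.1) of 388 places. Gained places that had an H3K27me3 peak at some stage had a pre-diapause H3K9me3 peak in 56.5% (51.8–61.2) of 451 cases. The mirrored class, 677 places gained by H3K27me3 with no H3K9me3 peak at any stage, had a pre-diapause H3K27me3 peak in 33.7% (30.1–37.4).

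The near-even split depended on the length of the pre-diapause list, which held the most peaks. With the pre-diapause H3K9me3 list shortened to the strongest 3504 peaks, as many as the diapause list held, 229 of 998 gained places, or 22.9% (20.4–25.7), had a pre-diapause peak. The weakest pre-diapause peak kept then had a −log10 q of 6.64, against 2.05 in the diapause list. In the whole pre-diapause list, the peaks at gained places had a median −log10 q of 6.40, close to the 6.49 of all its peaks.

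Gained places with and without a pre-diapause peak differed in how their diapause peak was built. With a pre-diapause peak the diapause fold had a median of 2.08 and quartiles of 1.73 and 2.56, and the −log10 q a median of 4.49 with quartiles of 3.29 and 6.83. Without one the fold was higher, with a median of 2.42 and quartiles of 2.01 and 2.83, while the −log10 q was lower, with a median of 3.55 and quartiles of 2.81 and 5.34. The median width was 504 bp with a pre-diapause peak and 434 bp without. Counting 1 diapause peak a place the difference was 67 bp, and it turned to -38 bp when the pre-diapause list was shortened as above. Peaks wider than 1000 bp made up 11.8% (9.06–14.9) of the first set and 3.17% (1.82–5.09) of the second, against 13.0% of the whole diapause list. Both sets were weaker than the diapause list as a whole, whose median fold was 2.57 and median −log10 q 5.37. This was not particular to gained places. At H3K9me3-only places with a non-diapause peak, the 173 diapause peaks had medians of 2.27 and 4.87. The sets with and without a pre-diapause peak overlapped widely in all 3 measures. The measures come from the list that chose the places, so they describe them and are not tested.

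**Figure D1:**
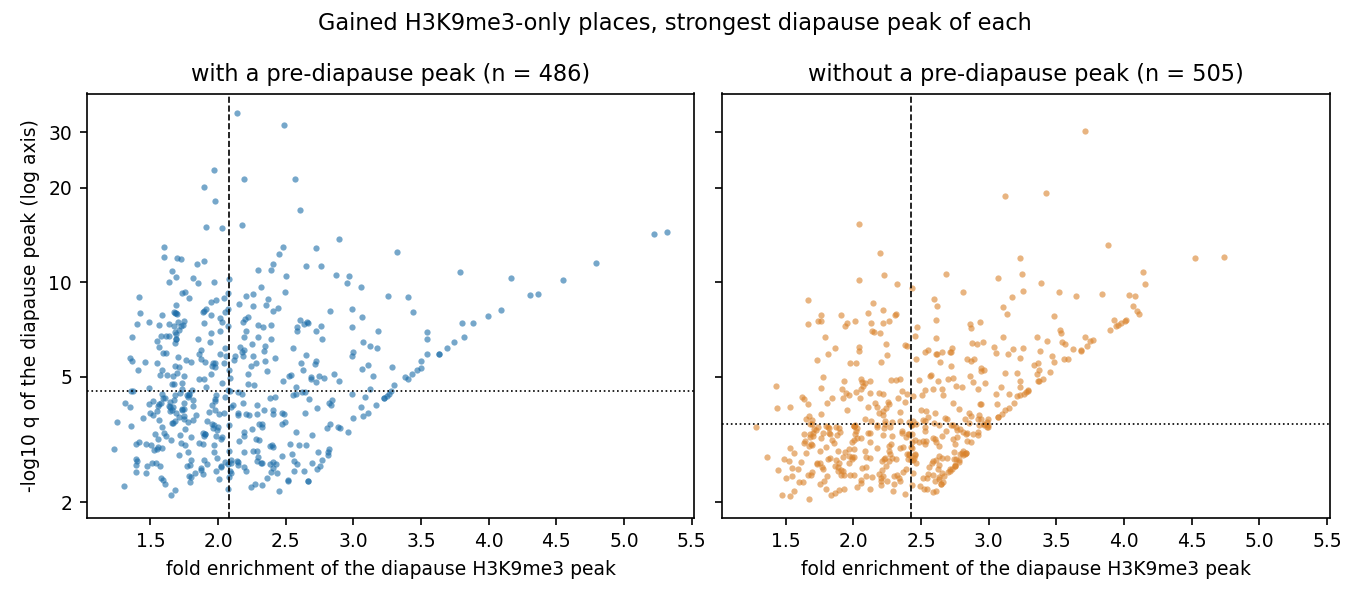
Fold enrichment (horizontal axis) against −log10 q (vertical log axis) of the strongest diapause H3K9me3 peak at each gained place, on the left for the 486 with a pre-diapause peak and on the right for the 505 without. Dashed and dotted lines are medians of fold and −log10 q; the points with a pre-diapause peak sit further to the left and spread further up, and those without lie more often along the lower right edge.

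In the full lists, fold and significance of the diapause peak went with a pre-diapause call in opposite directions. When the gained places were split into 5 parts of near-equal size by diapause −log10 q, the share with a pre-diapause peak was 36.7% (30.0–43.8) in the weakest part and 64.6% (57.6–71.3) in the strongest. The share rose with significance at the other diapause H3K9me3 places too, from 74.5% (70.5–78.3) to 96.2% (94.1–97.7) between their weakest and strongest parts. Split by fold instead, the share was 68.3% (61.4–74.7) in the lowest part and 35.9% (29.2–43.0) in the highest. No split by fold is given here for the other diapause H3K9me3 places, so whether it is particular to gained places was not tested. By width it was 36.2% (29.5–43.3) in the narrowest part, 306 to 341 bp, and 64.6% (57.6–71.3) in the widest, 743 to 2973 bp. The difference in median width turned to -38 bp when the pre-diapause list was shortened as above. No split into 5 parts is given here for that shortened list. With both measures split at their medians, a fold of 2.26 and a −log10 q of 4.06, places of low fold and high significance had a pre-diapause peak in 73.6% (67.3–79.3) of 220 cases. Places of high fold and low significance had one in 30.0% (24.0–36.5) of 220. The parts where both were low or both were high had near-equal shares, 46.9% (40.9–53.0) and 46.7% (40.7–52.8). As background, at a given fold the significance of a peak grows with the depth of reads over it. Reads are not in the lists, so the part of read depth in this pattern was not tested.

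The same 3 measures of the pre-diapause peak went with a call at diapause. The 486 places called at both stages are those of the split above, so the 2 splits are not independent. The measures come from a list that chose the places and are a description. There were 2372 places with a pre-diapause H3K9me3 peak, no non-diapause H3K9me3 peak and no H3K27me3 peak. A diapause peak was called at 486 of them, or 20.5% (18.9–22.2), and the other 1886 were called at pre-diapause alone. Split into 5 parts by pre-diapause −log10 q, the share with a diapause peak was 8.84% (6.45–11.8) in the weakest part and 40.1% (35.6–44.7) in the strongest. By pre-diapause fold it was 40.8% (36.4–45.4) in the lowest part and 12.9% (9.99–16.2) in the highest. By pre-diapause width it was 10.1% (7.55–13.2) in the narrowest and 32.1% (27.9–36.5) in the widest. The pre-diapause peak had a median fold of 2.24, a median −log10 q of 6.40 and a median width of 623 bp at places called again. At places called at pre-diapause alone these medians were 2.80, 4.15 and 453.5 bp.

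**Figure D2:**
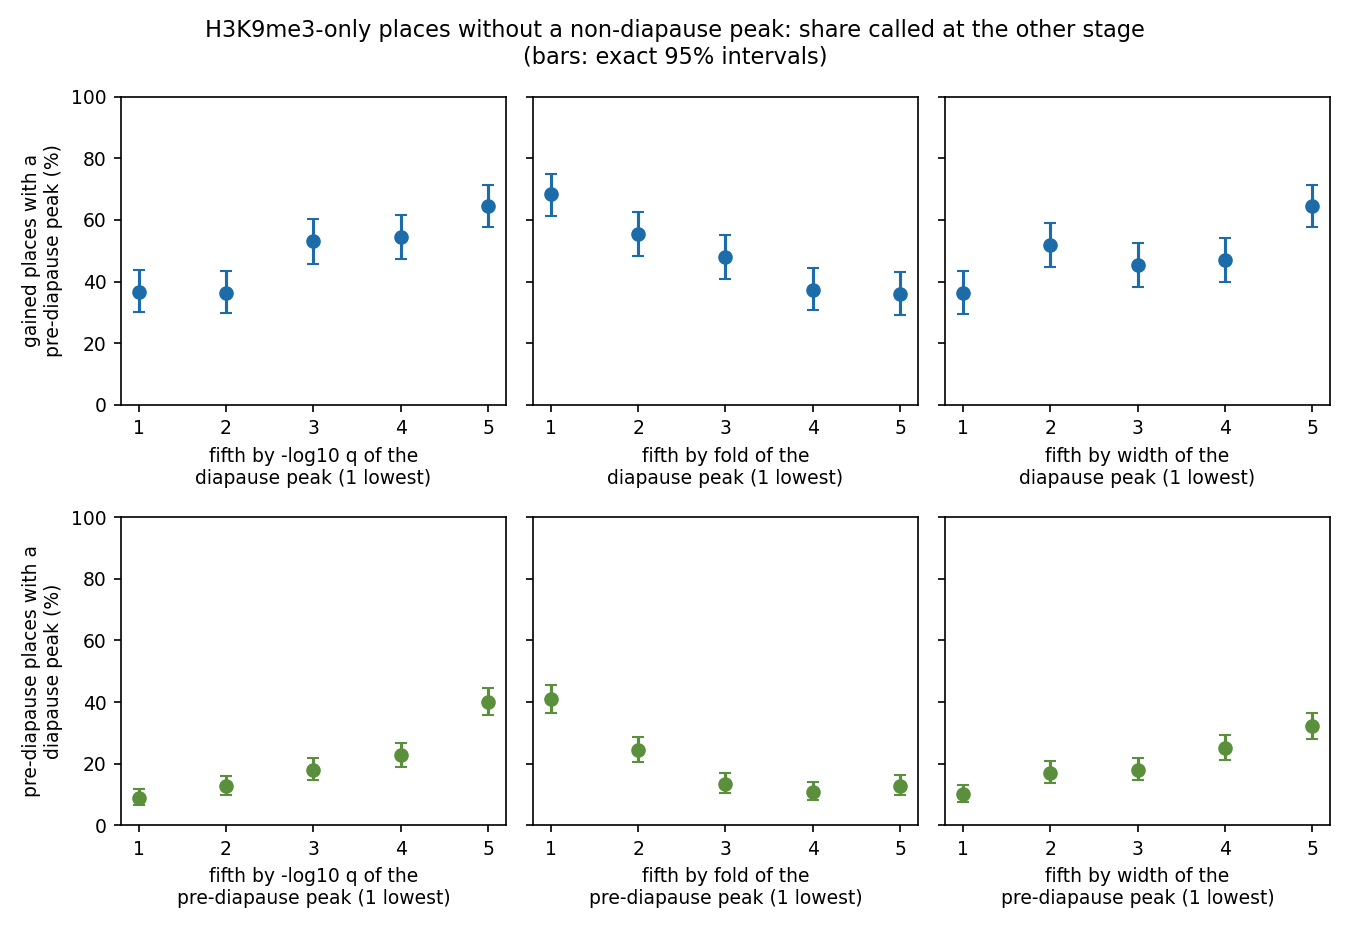
Vertical axes give the share of places (%) with an H3K9me3 peak at the other stage, with exact 95% intervals, for 5 near-equal parts of the places ordered by −log10 q, fold or width. The upper row splits the 991 gained places by their diapause peak, the lower row the 2372 places with a pre-diapause and no non-diapause peak by their pre-diapause peak; in both rows the share is highest in the most significant, the lowest-fold and the widest part. Both rows rest on the full lists, share the places with both peaks and are not independent.

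At the 486 places with both peaks the diapause peak mostly lay within the pre-diapause peak. A median of 97.5% of the diapause peak was covered, with a lower quartile of 79.5%, and 198 diapause peaks lay wholly inside. The reverse held for 53 pre-diapause peaks, and 453 diapause peaks were covered over at least 50% of their width. The pre-diapause peak was the wider of the pair at 340 places and the narrower at 145, with medians of 621 and 501 bp. Across these 486 places Spearman's rho between the stages was 0.83 for fold, 0.54 for −log10 q and 0.58 for width. These coefficients are descriptions: both peaks of a pair share the sequence under them and may share its background level. At 7 of these places 1 pre-diapause peak met 2 diapause peaks.

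**Figure D3:**
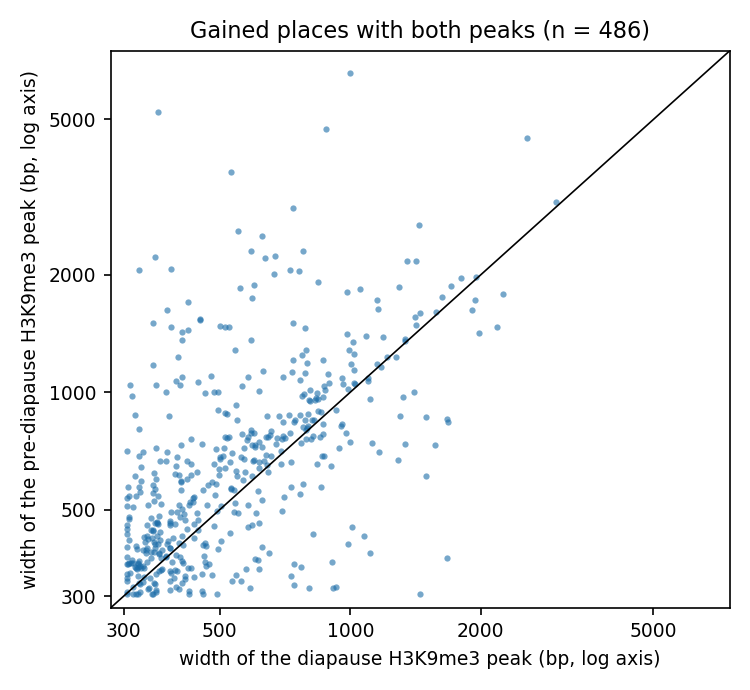
Width of the strongest diapause H3K9me3 peak (horizontal log axis, bp) against that of the strongest pre-diapause peak (vertical log axis, bp) at the 486 gained places with both, each point 1 place and the line equal width. At 340 places the point lies above the line, and the pre-diapause peak is the wider.

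The most significant gained places with a pre-diapause peak were narrow and of modest fold, with similar folds listed at both stages. The highest diapause −log10 q, 34.6, belonged to scaffold NW_021136627.1 at 1245–1662, with a diapause fold of 2.14 and a pre-diapause fold of 2.15. NW_021134301.1 638334–638704 followed with a −log10 q of 31.6 and a fold of 2.49 at diapause and 2.47 at pre-diapause. NW_021132839.1 159822–160228 had 22.7, with folds of 1.97 and 2.04. At these 3 places the listed folds of the stages differed little, although the lists share no scale. NW_021134933.1 303018–303368 was of the same kind, with 21.3 and folds of 2.57 and 2.52.

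All of the first 6 had a higher −log10 q in the pre-diapause list than in the diapause list. At the places above, in the order named, the pre-diapause −log10 q was 35.9, 34.0, 25.1 and 24.5. The remaining 2 of the first 6 differed the most between the lists, in fold as well. NW_021134840.1 134976–135378 had a diapause −log10 q of 21.4 and a fold of 2.20, beside a pre-diapause −log10 q of 60.6 and a fold of 3.50. NW_021131874.1 237620–238031 had 20.1 and 1.89 at diapause and 45.2 and 2.57 at pre-diapause. These places and NW_021136627.1, at a pre-diapause −log10 q of 35.9, were the 3 most significant pre-diapause peaks among the gained places.

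Highly significant calls made up a smaller share at the gained places than in the whole diapause list, as they did at other H3K9me3-only places. With a pre-diapause peak, a diapause −log10 q of at least 10 was reached by 42 of 493 diapause peaks, or 8.52% (6.21–11.3). Of these 42 peaks, 35 had a fold under 3 and 37 were narrower than 500 bp. Without a pre-diapause peak 15 of 505, or 2.97% (1.67–4.85), reached that level, and 5 of the 15 had a fold under 3. In the whole diapause list that level was reached by 606 of 3504 peaks, or 17.3% (16.1–18.6). Of these 606 peaks, 193 had a fold under 3 and 299 were narrower than 500 bp.

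The strongest places called at diapause alone were narrow peaks with higher folds. NW_021136639.1 21897–22245 led with a −log10 q of 30.4 and a fold of 3.71. NW_021134364.1 154899–155312 had 19.3 and 3.42, and NW_021137178.1 1603–1942, near the start of its scaffold, had 18.9 and 3.12. NW_021130868.1 135891–136198 had 13.1 and 3.89. The other 2 of the first 6 had low folds: NW_021131305.1 459511–459825 with a −log10 q of 15.4 and a fold of 2.04, and NW_021133360.1 481642–481956 with 12.4 and 2.20. All 6 were between 308 and 414 bp wide, below the median of 434 bp for gained places without a pre-diapause peak. The narrowest peak in the list had 306 bp. None of the 6 had a peak in any other list.

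By fold the order was another one, and these places were picked after their values were seen. With a pre-diapause peak the highest diapause folds were 5.32 at NW_021131322.1 335793–336149, where the pre-diapause fold was 3.96, and 5.22 at NW_021134063.1 42156–42563, where it was 2.55. NW_021135997.1 318283–318639 had 4.80 at diapause and 5.06 at pre-diapause. Without a pre-diapause peak they were 4.74 at NW_021137919.1 639655–640045, 4.52 at NW_021133324.1 294909–295223 and 4.15 at NW_021137323.1 147601–147918.

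The widest diapause peaks had low significance within their list. The widest with a pre-diapause peak covered 2973 bp of NW_021131070.1 at 21338–24310, with a fold of 1.65 at diapause and 1.74 at pre-diapause. NW_021136861.1 43313–45866 had a fold of 2.58, slightly above the list's median of 2.57, and the pre-diapause peak there ran to 47866 with a fold of 3.69. NW_021133089.1 28741–30988 had a fold of 1.42, beside 1.66 at pre-diapause. Without a pre-diapause peak the widest were NW_021132345.1 47926–50146 with a fold of 1.76, NW_021137579.1 174837–176447 with 2.17 and NW_021133019.1 262–1624 with 1.72. These 6 diapause peaks had −log10 q between 2.65 and 4.02, so all were below the median of the list.

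The weakest gained places lay at the edge of what was listed. NW_021133261.1 342446–342980, NW_021132341.1 92867–93416 and NW_021130531.1 224794–225203 had diapause −log10 q of 2.05, 2.09 and 2.11, and none had a pre-diapause peak. Just outside, NW_021131670.1 355473–356061, NW_021130424.1 273000–273739 and NW_021135018.1 298544–299123 were kept out only by a non-diapause H3K9me3 peak, with −log10 q of 2.21, 2.28 and 2.32. NW_021133589.1 11522–12155, NW_021130651.1 71610–72162 and NW_021132545.1 386916–387848 were kept out only by an H3K27me3 peak, with −log10 q of 2.18, 2.23 and 2.26. Membership of such places turned on calls hardly above the listed minimum.

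Beyond the overlap that the choice of places removed, few gained places lay close to a non-diapause H3K9me3 peak, as was so for places called at pre-diapause alone. A non-diapause H3K9me3 peak lay within 500 bp of 0 of the 486 places with a pre-diapause peak (interval up to 0.756%) and of 2 of the 505 without. Within 1000 bp it lay at 20 of all 991, or 2.02% (1.24–3.10), beside 1.75% (1.21–2.45) of the 1886 places called at pre-diapause alone. The median distance, where the sequence held such a peak at all, was 26663 bp with and 30457.5 bp without a pre-diapause peak, and 92 places were on a sequence that held none. At places called at diapause alone a pre-diapause H3K9me3 peak lay within 500 bp in 16 cases, or 3.17% (1.82–5.09), and within 1000 bp in 34, or 6.73% (4.71–9.28).

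The share of places near H3K27me3 had overlapping intervals in gained and in other H3K9me3-only places. An H3K27me3 peak of any stage lay within 10000 bp of 31.1% (27.0–35.4) of the gained places with a pre-diapause peak and of 26.3% (22.5–30.4) of those without. The share was 27.7% (25.7–29.8) at the 1886 places called at pre-diapause alone and 32.3% (28.4–36.3) at the 558 present at non-diapause. Places with a pre-diapause peak had another diapause H3K9me3 place within 10000 bp in 25.3% (21.5–29.4) of cases, and those without in 18.0% (14.8–21.7), beside 19.0% (17.3–20.9) at places called at pre-diapause alone and 20.3% (17.0–23.8) at those present at non-diapause.

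Gained places were spread over many scaffolds. They lay on 582 of the 1418 sequences with any peak, and 354 of these held a single one. Other H3K9me3-only places were spread as well: the 1886 called at pre-diapause alone lay on 777 sequences and the 558 present at non-diapause on 391. Within the first 1000 bp of a sequence lay 3.83% (2.73–5.23) of them, beside 3.61% (2.81–4.55) of the places called at pre-diapause alone, 3.41% (2.06–5.27) of those present at non-diapause and 2.50% (2.22–2.81) of all places. NW_021133039.1 held the most, 11 among its 42 places, and 9 of them had a pre-diapause peak. Next in number, first by name among 7 scaffolds with 6 each, were NW_021130297.1, with 3 of 6 called at pre-diapause, and NW_021130308.1, with 2 of 6. Their spans to the last listed peak were 724 kb, 1014 kb and 1959 kb.

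A stretch of 74.5 kb on NW_021133039.1, at 621842–696320, held 8 of those 11 places. It was found after the data were seen, by joining gained places at most 20 kb apart, and was the only such stretch of more than 4. Pre-diapause H3K9me3 peaks numbered 11 and covered 31.7% of it, and diapause peaks numbered 12 and covered 17.3%. A single non-diapause peak covered 2.62%, at 657831–659782 with a fold of 1.74, and so the stretch was not free of the mark at non-diapause. H3K27me3 had 1 peak in it, at pre-diapause with a fold of 1.26 and a width of 380 bp, and none at the other stages.

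Broad pre-diapause peaks in that stretch were met by shorter diapause peaks. At 674925–681484 the pre-diapause peak was 6560 bp wide with a fold of 2.16, and 2 diapause peaks of 999 and 1487 bp lay within it with folds of 1.99 and 1.83. At 644871–650093 it was 5223 bp wide with a fold of 2.58, over diapause peaks of 360 and 1115 bp with folds of 2.29 and 2.16. At 668056–670035 the order was the other one, with 1942 bp at diapause and 1724 bp at pre-diapause and folds of 1.91 and 2.30. The only place in the stretch called at diapause alone, 695898–696320, had a fold of 1.86 and a −log10 q of 3.09, and pre-diapause peaks lay on either side of it.

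**Figure D4:**
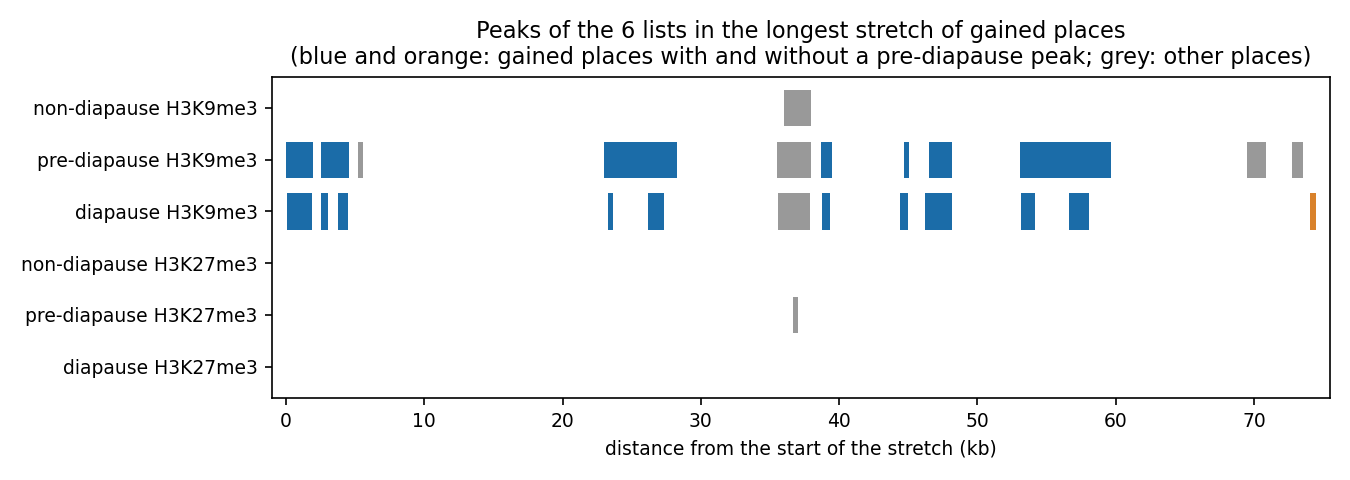
Peaks of the 6 lists along the 74.5 kb stretch of scaffold NW_021133039.1, with distance from its start in kb on the horizontal axis and 1 row for each list. Blue and orange boxes are peaks of gained places with and without a pre-diapause peak and grey boxes peaks of other places; pre-diapause and diapause H3K9me3 peaks recur along the stretch with gaps between them, covering 31.7 and 17.3% of it, and the non-diapause row has 1 peak.

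The 3 groups of 4 gained places, the next in size, lay on scaffolds with short spans. On NW_021137789.1 a stretch of 10.7 kb, 19665–30382, held 4 places, all with a pre-diapause peak, and H3K9me3 covered 41.2% of it at pre-diapause and 18.4% at diapause. On NW_021130568.1 all 4 places of the scaffold in any list were called at diapause alone, over 33.1 kb, with folds between 1.86 and 2.12. On NW_021136686.1, over 18.6 kb, 3 of 4 gained places were called at diapause alone, and H3K9me3 covered 15.7% at pre-diapause and 17.8% at diapause. None of these 3 stretches had a non-diapause H3K9me3 peak or an H3K27me3 peak. The stretches end at gained places, and NW_021137789.1 and NW_021136686.1 each held 1 place with a non-diapause H3K9me3 peak outside the stretch. Outside such groups most gained places stood alone: 840 of 991 had no other within 20 kb, and the rest formed 66 groups, of which 20 had a pre-diapause peak at every place, 19 at none and 27 at some. No such grouping is given here for other classes of places, so these counts have no background to be read against.

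Genes at the gained places were not analysed here, since the gene table used lists 17154 genes, none of them with a named sequence (0 placed). Sequences under the peaks were not analysed here either.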

How the data were processed

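ChIP-seq of larval heads was compared at 3 stages for 2 marks. The 6 immunoprecipitated samples each have 1 peak list; the 3 inputs were not used here. Per the submitters' processing notes, the tools were Bowtie2, Picard, MACS2, deepTools and ChIPseeker. Versions, settings, genome build, the use of the input and any pooling of libraries are not given in the sources used here. The deposited lists have 9 columns without a header, taken for broad peaks as MACS2 writes them. The deposited score is 10 times −log10 q, cut to a whole number, within 1, and was not used. The deposited fold enrichment is a ratio, and −log10 p and −log10 q are deposited as the authors' peak caller gave them; −log10 p was not used. Positions are those of the lists, written 1-based.

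The 12 peaks on the 1 NC_ sequence were left out, and the other peaks were merged into places where they shared at least 1 bp. At a place with several peaks of a list, the one with the highest −log10 q stands for it. Places named are those with the highest diapause or pre-diapause −log10 q, the widest diapause peak, the most crowded scaffolds and those nearest to the rule's limits. Members, rules and measures were chosen with earlier results of these data known. The alternatives were a minimum −log10 q of 3 in all lists or in the diapause H3K9me3 list, a partner covering at least 50% of the peak, joining peaks up to 500 or 1000 bp apart, and lists of equal length. Merging and classing were checked on simulated lists. Python 3.11.15, numpy 2.4.6, pandas 2.3.3, scipy 1.17.1 and matplotlib 3.10.9 were used.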

Additional observations from a re-analysis of the deposited data

How the results depend on the processing

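The number of gained places stayed between 743 and 1259 in all 7 alternatives, against 991. With a partner covering at least 50% of the peak, the number was 1150, which counts single diapause peaks and not merged places. The share with a pre-diapause peak was 53.2% with diapause H3K9me3 peaks of −log10 q of at least 3. With the 3504 strongest peaks of each list it was 22.7% (286 places), and with only the pre-diapause H3K9me3 list shortened, an alternative chosen after seeing the data, 22.9% (229 places). In the other 4 alternatives it was between 48.7 and 51.5%. With a pre-diapause peak the median width of the diapause peak was 67 bp greater than without; in the lists of equal length it differed by -26 bp, and with only the pre-diapause list shortened by -38 bp. The cause was not tested. The difference in median −log10 q, 0.97, kept its sign in all 7 alternatives. It was 2.40 in the lists of equal length, 2.64 with only the pre-diapause list shortened, and between 0.81 and 1.09 in the other 5. No paired analysis was possible because each stage and mark has 1 list. Unknown depth limits every statement on a missing peak.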
